A study of Homo sapiens with 4 samples.

Results

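Contactins and the neural adhesion molecules that work beside them are described here in RD cells, a rhabdomyosarcoma line of the fusion-negative type, after selection for resistance to vincristine. The list holds 10 genes, CNTN1, CNTN3, CNTN4, CNTN6, CNTNAP1, CNTNAP2, CNTNAP3, NCAM1, NCAM2 and L1CAM, and 8 of them are among the 18375 genes of the deposited table. CNTN1 and CNTN4 have no row there and were not measured here. The genes were chosen by name with the fold changes of resistant over parental cells in these same libraries already known, so their differences are a description and carry no test.

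Poly(A)-selected RNA was sequenced in 4 libraries, 2 from vincristine-resistant cells (genotype WT, kept on vincristine until the half-maximal inhibitory concentration was at least 100 times higher) and 2 from untreated control cells (genotype WT), called parental below. Vincristine, a vinca alkaloid, stops mitosis by binding tubulin. Selection began at 1 to 1.5 nM, a dose that left few survivors, and moved up in steps of 10 to 20% over 9 to 12 months. The labels do not say how many separate selections or cultures stand behind the libraries, so the p-values below reflect the spread among the 4 libraries alone, and that spread may be technical.

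Recovered reads over the genes of the table numbered 58861281 and 67270948 in resistant cells and 67690557 and 65818879 in parental cells. Values are normalized counts, that is gene counts divided by one size factor per library. Of the 10 skeletal muscle markers, 8 were in the table and MYF5 and MYF6 were not. Of the 8, 7 were higher in resistant cells, PAX3 narrowly (log2 fold change 0.14, limma adjusted p = 0.0471), and MYOD1 did not pass (log2 fold change -0.06). Across all genes tested, 32.7% were called higher and 34.2% lower, shares to set beside the marker counts here. The summed level of the 8 was 137000 to 140620 normalized counts in resistant cells and 79774 to 79874 in parental cells. Neuron markers (6 of 9 in the table) summed to 5290 to 5413 in resistant and 6404 to 6517 in parental cells, and 4 of the 6 were lower in resistant cells and 1, SNAP25, higher. Of the glial and Schwann cell markers, MBP had 658 and 649 in resistant and 306 and 307 in parental cells and was higher, GFAP did not pass, and SOX10, S100B, OLIG2 and PMP2 had no row in the table. The blood marker CD68 had 6.49 to 7.64 in resistant and 20.9 to 23.2 in parental cells, and the endothelial marker TEK had 1690 to 1729 in resistant and 188 to 210 in parental cells, while the other 3 endothelial and 4 blood markers, PECAM1, CDH5, VWF and PTPRC among them, were not in the table. The 5 epithelial markers summed to 14898 to 15071 in resistant and 5101 to 5146 in parental cells, mostly KRT18. Of these, KRT18, KRT8 and CDH1 were higher, CLDN4 was lower (237 and 206 in resistant, 345 and 346 in parental cells) and EPCAM did not pass. The part of these markers in the results below was not tested, and in bulk RNA fewer cells of a type and less RNA per cell cannot be told apart.

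Contactins are immunoglobulin superfamily proteins that a lipid anchor holds on the outer face of the membrane of neurons, where they bind partners on the same cell or on the next one. The contactin-associated proteins (CASPR proteins) are transmembrane relatives of the neurexins, and contactin and CASPR pairs build the junctions that flank the node of Ranvier. NCAM1, NCAM2 and L1CAM are immunoglobulin superfamily adhesion molecules with a transmembrane form. NCAM1 is also present on myoblasts and regenerating muscle fibres.

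The 2 genes that differed most in opposite directions were CNTN6 and CNTNAP2, and their promoters are shown for comparison, each 250 bases before to 50 bases after the RefSeq start of the gene (GRCh38.p14). The CNTN6 window is chr3:1092774-1093073 and the CNTNAP2 window chr7:146116551-146116850, both on the plus strand. Capitals mark matches on either strand to the E-box CAGCTG, a form bound by myogenic factors, to the GC box GGGCGG or to the TATA box TATAAA, each read within these windows alone.
CNTN6: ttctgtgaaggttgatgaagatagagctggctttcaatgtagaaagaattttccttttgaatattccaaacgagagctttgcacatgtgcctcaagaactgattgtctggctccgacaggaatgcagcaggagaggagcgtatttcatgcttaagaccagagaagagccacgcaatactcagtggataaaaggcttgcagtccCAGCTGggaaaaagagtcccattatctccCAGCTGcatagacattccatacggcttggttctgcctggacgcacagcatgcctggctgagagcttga
CNTNAP2: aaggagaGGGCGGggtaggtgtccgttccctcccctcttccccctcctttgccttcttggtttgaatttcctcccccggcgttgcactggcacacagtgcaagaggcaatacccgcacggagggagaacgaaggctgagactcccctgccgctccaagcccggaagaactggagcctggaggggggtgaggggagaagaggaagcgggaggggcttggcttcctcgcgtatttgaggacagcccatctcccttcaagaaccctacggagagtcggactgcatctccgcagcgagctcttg

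The CNTN6 window holds the E-box 2 times, with first bases at -47 and -18 from the start, and no GC box. At least 1 such E-box stands in 17.9% of 34943 RefSeq windows of the same length, and 2 or more in 2.1%. The CNTNAP2 window holds 1 GC box, at -243, a match found in 44.9% of windows, and no E-box of these letters. Neither window has the TATA box, which stands in 11.6% of windows. CpG dinucleotides were at 0.360 of the number that base composition gives in the CNTN6 window and at 0.562 in the CNTNAP2 window, against a median of 0.577 over all windows. RefSeq windows were at hand for 7 of the 8 measured genes, NCAM1 being without one, and the highest CpG ratios were those of CNTNAP3 (0.983) and CNTN3 (0.890). The E-box also stands in the windows of CNTNAP3 and L1CAM, the GC box in those of CNTN3, CNTNAP1 and L1CAM, and neither in that of NCAM2. The last bases of the CNTN3, CNTNAP1 and NCAM2 windows, which follow the RefSeq start, are in no GENCODE transcript of the gene. The CNTN3 window starts at 74614610, outside the GENCODE gene, which ends at 74521140. That of CNTNAP1 ends at 42682580, before the GENCODE start at 42682613. The windows of CNTN6, CNTNAP2, NCAM2 and L1CAM lie wholly inside the GENCODE genes. Those genes begin at 1092576, 146116002, 20998315 and, on the minus strand, 153886174, and the NCAM2 window starts at 21146912. A match is a description of the letters and was not tested for binding.

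Each of the 8 measured genes had groups that did not overlap, as had 82.1% of the 18330 genes tested across the table. With limma and Benjamini-Hochberg adjustment over all those genes at a threshold of 0.05, 3 of the 8 were called higher (CNTN6, CNTNAP1 and NCAM1) and 5 lower (CNTN3, CNTNAP2, CNTNAP3, NCAM2 and L1CAM), beside 32.7% of all genes called higher, 34.2% called lower and 66.9% called in either direction. Since the genes were picked with this contrast in view, nothing is read from these counts. Their median log2 fold change was -0.73, and that of all genes tested 0.00.

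**Figure D1:**
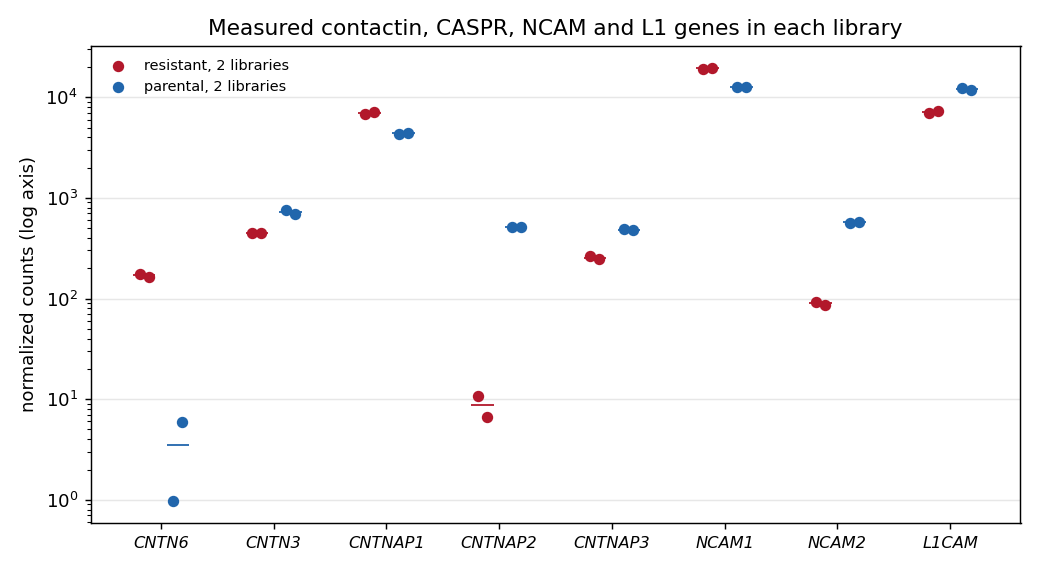
Normalized counts (log axis) of the 8 measured genes in each library, with resistant libraries in red on the left and parental libraries in blue on the right of each pair and a line at the mean of 2 libraries. CNTN6 sits at 163 and 175 in resistant cells and at or below 5.96 in parental cells, and CNTNAP2 shows the opposite picture, at or below 10.8 in resistant cells and at 513 and 519 in parental cells.

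Among the contactins, CNTN6 was almost absent from parental cells. CNTN6, a contactin of the developing brain that has been described as a Notch ligand, had 175 and 163 normalized counts in the resistant libraries and 0.967 and 5.96 in the parental libraries. Both resistant libraries stood far above both parental ones. The values are 162 and 171 reads in resistant cells and 1 and 6 reads in parental cells. The ratio of resistant to parental cells was 49.2, with an exact 95% binomial interval of 23.6 to 123, which covers counting error only. The gene ranked sixth from the top of 18330 fold changes. With so few parental reads the fitted log2 fold change, 5.52 (SE 0.41), depends on the pseudocount: it was 3.76 with 10 and 5.78 with 0.5 in place of 1. It was 4.61 without parental replicate 1 and 6.43 without parental replicate 2, each with a single parental library that was assumed to vary as the other group did. CNTN6 (ENSG00000134115) lies on chromosome 3 from 1092576 to 1404217 on the plus strand.

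CNTN3, the other measured contactin, which binds the receptor phosphatase PTPRG in mouse, moved the other way. It had 452 and 450 normalized counts in resistant cells and 755 and 697 in parental cells (log2 fold change -0.68, SE 0.08). Both resistant libraries lay below both parental ones. CNTN3 (ENSG00000113805) is also on chromosome 3, from 74262568 to 74521140 on the minus strand. Per kilobase of exon, CNTN6 stood at 0.354 and 0.332 of the level of CNTN3 in the resistant libraries and at 0.00117 and 0.00782 in the parental ones, so CNTN3 was the more abundant of the pair in every library.

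The 3 CASPR genes split. CNTNAP1, which encodes the paranodal partner of contactin-1, had 6811 and 7178 normalized counts in resistant cells and 4356 and 4427 in parental cells (log2 fold change 0.67, SE 0.04), with no overlap between groups. CNTNAP2, whose protein anchors potassium channels beside the node together with contactin-2, had 10.8 and 6.68 in resistant cells and 513 and 519 in parental cells. The groups lay far apart, the reverse of CNTN6. There were 17 reads over both resistant libraries and 1053 over both parental libraries, and the parental level was 59.9 times the resistant one, with an exact 95% binomial interval of 37.2 to 103. CNTNAP2 ranked 12th from the bottom of the 18330 fold changes. Its fitted log2 value was -5.76 (SE 0.21) and moved to -4.82 with a pseudocount of 10. CNTNAP3, a CASPR gene of less well known function, had 262 and 248 in resistant cells and 486 and 479 in parental cells (log2 fold change -0.92, SE 0.09).

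Copies of CNTNAP3 make its value uncertain. Of the 75-base windows of its longest GENCODE transcript, 66.4% also stand in a transcript of another gene, and 46.5% stand in CNTNAP3B, which has no row in the table. How the reads of such stretches were assigned is not given in the sources used here. None of the windows of CNTN3, CNTN6, CNTNAP1, CNTNAP2, NCAM1 or NCAM2 was shared with another gene, and 7.2% of those of L1CAM were shared with U52112.1, a transcript that overlaps it on the same strand. CNTNAP1 (ENSG00000108797) lies on chromosome 17 from 42682613 to 42699814 and shares 6.3% of its exonic bases with CCR10 on the opposite strand. CNTNAP2 (ENSG00000174469) spans chromosome 7 from 146116002 to 148420998, and CNTNAP3 (ENSG00000106714) chromosome 9 from 39072767 to 39288315.

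The NCAM pair also went in opposite directions. NCAM1, the most abundant of the 8 genes in normalized counts, had 19198 and 19676 in resistant cells and 12617 and 12589 in parental cells (log2 fold change 0.62, SE 0.03). NCAM2, an adhesion molecule of olfactory axons, had 93.1 and 85.9 in resistant cells and 568 and 578 in parental cells (log2 fold change -2.67, SE 0.11). The resistant libraries of NCAM2 lay well below the parental ones, and those of NCAM1 above. The parental level of NCAM2 was 6.41 times the resistant one, with a counting interval of 5.47 to 7.56. Per kilobase of exon, NCAM1 stood 136 and 151 times above NCAM2 in the resistant libraries and 14.6 and 14.3 times above it in the parental libraries. NCAM1 (ENSG00000149294) is on chromosome 11 from 112961247 to 113278436, with 4.3% of its exonic bases under NCAM1-AS1 on the opposite strand, and NCAM2 (ENSG00000154654) is on chromosome 21 from 20998315 to 21543329.

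L1CAM, an adhesion molecule of growing axons that is also found on tumour cells, was lower in resistant cells. It had 6912 and 7245 normalized counts there and 12234 and 11867 in parental cells (log2 fold change -0.77, SE 0.03). Since NCAM1 was higher and L1CAM lower, the order of the pair per kilobase of exon turned. The level of NCAM1 per kilobase was 1.59 and 1.55 times that of L1CAM in the resistant libraries and 0.589 and 0.605 times that of L1CAM in the parental ones. Without division by length NCAM1 stood above L1CAM in every library, in parental cells at 12617 and 12589 against 12234 and 11867. L1CAM (ENSG00000198910) lies on the X chromosome from 153861514 to 153886174 on the minus strand.

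Set in order of level per kilobase of exon, resistant cells had NCAM1 (1526 normalized counts per kilobase), CNTNAP1 (1157), L1CAM (974), CNTN3 (88.3), CNTN6 (30.3), CNTNAP3 (26.8), NCAM2 (10.7) and CNTNAP2 (0.525). Parental cells had L1CAM (1658), NCAM1 (989), CNTNAP1 (727), CNTN3 (142), NCAM2 (68.3), CNTNAP3 (50.7), CNTNAP2 (31.0) and CNTN6 (0.620). With these exon lengths the 2 libraries of a group never overlapped between neighbours in either order. The closest were CNTN6 (31.4 and 29.2) and CNTNAP3 (27.5 and 26.1) in resistant cells. Levels, ratios and shares per kilobase rest on all exons of a gene combined. The longest transcript can be far shorter, 5064 bases against 9.521 kb for CNTNAP3 and 6045 bases against 12.737 kb for NCAM1. Neighbours in the order change place with the longest transcript as the length. CNTNAP3 then stands above CNTN6 in resistant cells and above NCAM2 in parental cells. The mean level of L1CAM then stands above that of CNTNAP1 in resistant cells. Other lengths were not tested. By level per kilobase of exon, NCAM1 stood at the 88.5th percentile of all genes in resistant cells and at the 81.2nd in parental cells. L1CAM stood at the 81.6th in resistant and the 88.7th in parental cells.

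The summed level of the 8 genes per kilobase was 3744 and 3883 in resistant libraries and 3692 and 3641 in parental libraries, while the shares within it shifted. NCAM1 made up 40.3 and 39.8% of the sum in resistant cells and 26.8 and 27.1% in parental cells. CNTNAP1 gave 30.1 and 30.6% in resistant and 19.5 and 20.1% in parental cells, and L1CAM 25.4 and 25.7% in resistant and 45.6 and 44.8% in parental cells. The contactins together were 3.20 and 3.02% of the sum in resistant and 4.01 and 3.78% in parental cells.

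**Figure D2:**
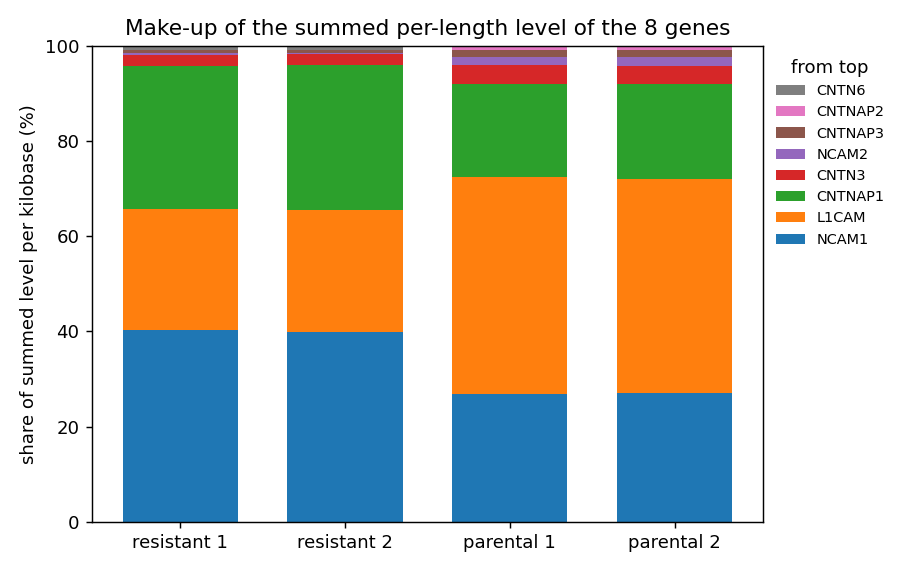
Share (%) of each gene in the summed level per kilobase of exon of the 8 measured genes, 1 bar per library, resistant libraries on the left. NCAM1 is the largest share in both resistant libraries (40.3 and 39.8%) and L1CAM in both parental libraries (45.6 and 44.8%), and the 5 other genes beside these and CNTNAP1 form a thin band at the top.

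Chromosomal neighbours were read beside each gene, as the 20 tested genes closest in order along the chromosome. As many were taken on each side, except near a chromosome end. These neighbours spanned 275 kb at CNTNAP1, 8198 kb at CNTN6 and 25038 kb at CNTNAP3, so they are not equally near. Around CNTN6 their median log2 fold change was 0.12, with the noncoding AC090044.1 next on its left (2.06, limma adjusted p = 2.46e-07) and TRNT1 next on its right (0.16, limma adjusted p = 0.00639). LINC01266, further left and named after its value was seen, had 1.92. Around CNTNAP2, 16 of the 20 neighbours were called lower and the median was -0.29. Around L1CAM 15 of 20 were called lower with a median of -0.17. Of all genes, 34.2% were called lower and 32.7% higher. CNTNAP1 lies in a stretch of chromosome 17 whose 20 neighbours had a median of 0.16, 9 of them called higher and 2 lower. Less that median, its log2 fold change was 0.51. The next tested genes on either side had log2 fold changes of -0.40 (EEF1A1P10) and -0.02 (AC005229.4) at CNTNAP2, and of 0.07 (PPIAP22) and 0.38 (RPL13AP7) at NCAM2, none of which passed. They were 0.15 (AP000802.1) and 0.24 (AP000880.1) at NCAM1, neither passing, and -0.21 (CCR10, not passing) and 0.19 (EZH1, passing) at CNTNAP1. At CNTN3 PDZRN3 was at -1.17 and passed while HNRNPA3P6 (-0.06) did not, and at L1CAM CYCSP45 was at -0.83 and passed while AVPR2 (0.30) did not. CNTNAP3 had FAM201A beside it, which passed at 3.77, and ZNF658B, which did not (0.02). The medians were 0.17 at NCAM1, 0.06 at CNTN3, 0.06 at NCAM2 and -0.03 at CNTNAP3. Once the median was subtracted, values were 5.40 for CNTN6, -0.74 for CNTN3, -5.47 for CNTNAP2, -0.89 for CNTNAP3, 0.46 for NCAM1, -2.72 for NCAM2 and -0.60 for L1CAM, each with the sign it had before.

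**Figure D3:**
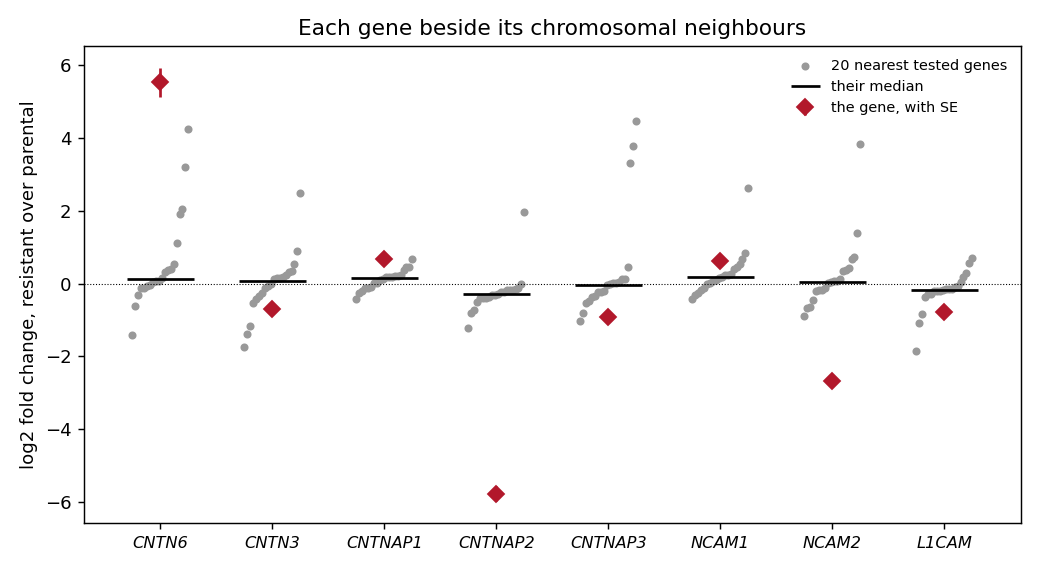
Log2 fold change of resistant over parental cells for each measured gene (red diamond, with SE). Grey points are the 20 tested genes closest in order on its chromosome, with their median as a black line. CNTN6 (5.52) lies above all of its neighbours, whose highest value is 4.25, and CNTNAP2 (-5.76) and NCAM2 (-2.67) lie below all of theirs, whose lowest values are -1.23 and -0.88.

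The genes whose 4 values, centred on the log2 scale, were nearest to those of CNTN6 were the noncoding AC100801.1 (Euclidean distance 0.485 log2 units over 4 libraries), the zinc finger gene PRDM13 (0.629) and MOB3B (0.661). Those nearest to CNTNAP2 were BTBD17 (0.0754), ZNF883 (0.0965) and BMPR1B (0.157), a bone morphogenetic protein receptor gene. With 4 libraries in 2 groups likeness and a like difference between the groups cannot be told apart, and ZNF883 shares 35.9% of its exonic bases with a second entry of the same name on its strand.

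Beyond the 10 genes, 57 genes of the same families and of their partners were listed by role, and 40 were tested, while 17 had no row in the table. Of the 40, 21 rose in resistant cells, 14 fell and 5 did not pass, that is 52.5% higher and 35.0% lower beside the 32.7 and 34.2% of all genes. Their median log2 fold change was 0.14. No test of the list as a whole was made.

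**Figure D4:**
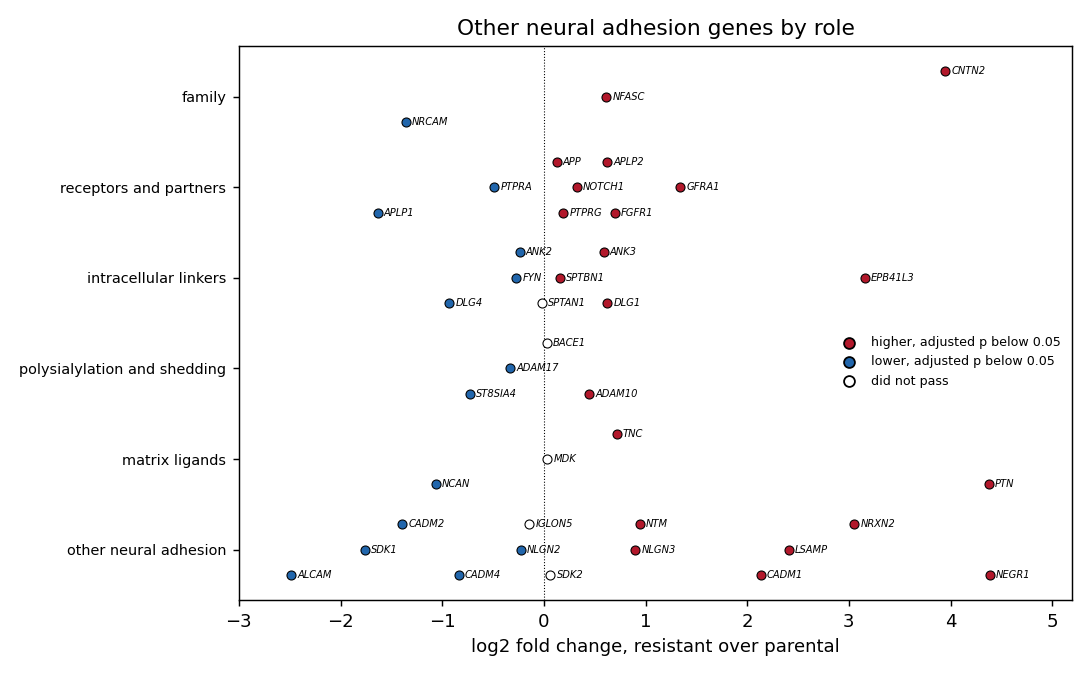
Log2 fold change of resistant over parental cells for 40 further neural adhesion genes, in rows by role, filled red or blue where limma called them higher or lower at an adjusted p below 0.05 and white where it did not. Every role holds genes on both sides of 0, and the points farthest right are NEGR1 (4.39), PTN (4.38) and CNTN2 (3.95), and the point farthest left is ALCAM (-2.48).

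Of the remaining contactin, CASPR and L1 family genes, 3 of 8 were in the table. CNTN2, the partner of CNTNAP2 at the axon, had 42.2 and 52.5 normalized counts in resistant cells and 3.87 and 0.994 in parental cells. That is 94 reads against 5, a ratio of 19.5 with an exact 95% binomial interval of 8.05 to 61.3 that covers counting error only. With 4 and 1 parental reads, the ratio was 47.6 without parental replicate 1 and 12.2 without parental replicate 2. NRCAM, an L1 family molecule of the node, had 2176 and 2060 in resistant and 5399 and 5467 in parental cells (log2 fold change -1.36, SE 0.04). NFASC, the gene of neurofascin and a neighbour of CNTN2 on chromosome 1, was higher, at 1353 and 1488 in resistant and 975 and 881 in parental cells (log2 fold change 0.61, SE 0.06). All 3 passed, beside 66.9% of all genes called in either direction, the least certain being CNTN2 (limma adjusted p = 4.64e-08). CNTN2 reached 10 normalized counts, the value for entering the tests, in resistant libraries alone, so its call is given as a description. CHL1, CNTN5, CNTNAP3B, CNTNAP4 and CNTNAP5 had no row in the table.

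Of 8 measured receptors and membrane partners, 6 were called higher and 2 lower, beside 32.7 and 34.2% of all genes. With a change above 1.2-fold required, or with dispersion fixed at 0.01, 3 of the 8 were called higher, and PTPRG, APP and NOTCH1 lost their calls. GFRA1, a co-receptor for glial cell line-derived neurotrophic factor that also works with NCAM1, had 10632 and 10652 normalized counts in resistant and 4129 and 4267 in parental cells (log2 fold change 1.34, SE 0.03). FGFR1, a growth factor receptor that NCAM1 and L1CAM engage, rose by 0.70 (SE 0.03) on the log2 scale, APLP2 by 0.62 (SE 0.03), NOTCH1 by 0.32 (SE 0.03), PTPRG by 0.19 (SE 0.05) and APP, the amyloid precursor gene, by 0.12 (SE 0.03). APLP1, its neuronal relative, shares 6.3% of its exonic bases with NPHS1 on the opposite strand and had 819 and 892 in resistant and 2696 and 2609 in parental cells (log2 fold change -1.63, SE 0.05). PTPRA, a receptor phosphatase that works with contactins and NCAM1, had a log2 fold change of -0.49 (SE 0.03), but it turned to 0.11 once the median of its 20 chromosomal neighbours was subtracted. The call of PTPRG was gone when parental replicate 2 was left out (limma adjusted p = 0.0738), and PTPRG shares 8.3% of its exonic bases with PTPRG-AS1 on the opposite strand. PTPRA shares 12.5% of its exonic bases with VPS16 on the same strand. PTPRZ1, the contactin-1 receptor of glia, had no row in the table.

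Among intracellular linkers, 4 of 8 rose, 3 fell and SPTAN1 did not pass (-0.02, SE 0.03). Of all genes, 32.7% were called higher and 34.2% lower. With a change above 1.2-fold required, 2 linkers were called higher and 1 lower, and with dispersion fixed at 0.01, 3 higher and 1 lower. ANK2, SPTBN1 and FYN lost their calls in both settings and ANK3 in the first. EPB41L3, a band 4.1 protein that ties CASPR proteins to the cytoskeleton, had 2804 and 2790 normalized counts in resistant and 305 and 321 in parental cells (log2 fold change 3.16, SE 0.06). The scaffold gene DLG1 rose by 0.62 (SE 0.04) and its relative DLG4, the postsynaptic scaffold, had a log2 fold change of -0.93 (SE 0.06). The kinase gene FYN (-0.27, SE 0.03) and the ankyrin gene ANK2 (-0.24, SE 0.04) fell, and the spectrin gene SPTBN1 rose by 0.15 (SE 0.03). ANK3, an ankyrin that binds L1 family tails, had 83.3 and 103 in resistant and 68.6 and 54.7 in parental cells, with a log2 fold change of 0.59 (SE 0.20, limma adjusted p = 0.0103). Its call was lost without resistant replicate 2 (limma adjusted p = 0.117), with parental replicate 2 left out (limma adjusted p = 0.108), with DESeq2 on recovered reads (adjusted p = 0.0879) and once the median of its neighbours was subtracted, as was that of ANK2 in the last case.

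The enzymes that modify or cut these molecules moved both ways. ST8SIA4, a polysialyltransferase that adds polysialic acid to NCAM1, had 3936 and 3659 normalized counts in resistant and 6235 and 6295 in parental cells (log2 fold change -0.72, SE 0.04), while ST8SIA2 had no row in the table. The sheddase gene ADAM10 rose by 0.45 (SE 0.04) and ADAM17 had a log2 fold change of -0.33 (SE 0.03). ADAM17 lost its call with a change above 1.2-fold required (limma adjusted p = 0.0791) and with dispersion fixed at 0.01 (edgeR adjusted p = 0.055). BACE1 did not pass (0.03, SE 0.04), and once the median of its neighbours was subtracted it stood at -0.13 and passed (limma adjusted p = 0.0124). ADAM17 shares 12.3% of its exonic bases with IAH1 and BACE1 26.0% with BACE1-AS, both on the opposite strand, and without a stated strand setting such reads cannot be told apart.

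Of 4 measured matrix ligands, PTN and TNC rose, beside 32.7% of all genes called higher and 34.2% called lower. PTN, the gene of pleiotrophin, a growth factor that binds PTPRZ1, had 2348 normalized counts in each resistant library and 103 and 121 in the parental libraries, a log2 fold change of 4.38 (SE 0.08). TNC, the gene of the contactin ligand tenascin-C, had 166110 and 170870 in resistant and 103780 and 101380 in parental cells (log2 fold change 0.72, SE 0.03). MDK, the gene of midkine, a relative of pleiotrophin, did not pass at 0.03 (SE 0.03), though it did without resistant replicate 1 (0.08, limma adjusted p = 0.000105) and with equal library totals (0.07, limma adjusted p = 0.0479). NCAN, a neural proteoglycan gene with 18 reads in resistant and 43 in parental cells, had a log2 fold change of -1.06 (SE 0.44, limma adjusted p = 0.0370), and the call was lost without resistant replicate 2 (limma adjusted p = 0.206), with parental replicate 1 left out (limma adjusted p = 0.384), with DESeq2 on recovered reads (adjusted p = 0.157), with a change above 1.2-fold required (limma adjusted p = 0.11) and once the median of its neighbours was subtracted (limma adjusted p = 0.158).

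Other neural adhesion genes split, with 6 of 13 measured called higher, 5 lower and 2 without a call. Of all genes, 32.7% were called higher and 34.2% lower. With a change above 1.2-fold required, or with dispersion fixed at 0.01, 4 of the 13 were called lower, and NLGN2 lost its call. The 3 largest increases were those of NEGR1 and LSAMP, which encode lipid-anchored adhesion molecules of the IgLON family, and of the neurexin gene NRXN2. NEGR1 had 1593 and 1541 normalized counts in resistant and 68.6 and 79.5 in parental cells (log2 fold change 4.39, SE 0.10). NRXN2 had 318 and 324 in resistant and 36.7 and 38.8 in parental cells (3.05, SE 0.16), and LSAMP 883 and 880 in resistant and 146 and 186 in parental cells (2.41, SE 0.10). The 3 largest decreases were those of ALCAM (-2.48, SE 0.06), an adhesion molecule of leukocytes and neurons with 529 and 472 in resistant and 2737 and 2865 in parental cells, of SDK1 (-1.76, SE 0.15), which guides synaptic layers in the retina of chick, and of CADM2 (-1.39, SE 0.07), a synaptic cell adhesion gene. SDK2, named after its value was seen, did not pass (0.07, SE 0.06), but did without resistant replicate 1 (limma adjusted p = 0.0382) and once the median of its neighbours was subtracted (1.46).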

How the data were processed

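Per the submitters' processing notes, reads were handled with STAR 2.5.2b, bcl2fastq 2.17, DESeq2 and featureCounts (Subread 1.5.2) on build GRCh38. The annotation and the strand setting were not given in the sources used here. One signal column of normalized counts per library was deposited by the authors. Within a library every value (100% within 0.01) was a whole number of reads over one size factor, and reads were recovered. The deposited log2 fold change and p-value columns, made by the authors per the file headers, were not used for results.

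A gene entered the tests (18330 did) if 2 or more libraries had a value of 10 or higher, which all 8 measured members passed. CNTN6 and, in the wider list, CNTN2 did so only through the resistant libraries, where they are high. Log2(value + 1) was fitted with limma 3.58.1 (eBayes with trend) with group as the one term. P-values were adjusted over the whole table (Benjamini-Hochberg), and calls made at 0.05. Fold changes are on the log2(value + 1) scale, which understates those of low genes. The SE is limma's moderated one. With 2 against 2 libraries an exact permutation test cannot go below 0.333, so none was run. Alternatives used edgeR 4.0.16 and DESeq2 1.42.0 on recovered reads in R 4.3.3.

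Members and lists were chosen with earlier results of these data known. The text names every member, all measured genes of each role with up to 9, the 3 highest and 3 lowest called genes of the larger role, nearest patterns and nearest tested neighbours. Positions, exon lengths and overlaps are from GENCODE 29, promoters from RefSeq. Some glial marker results are not reported here.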

Additional observations from a re-analysis of the deposited data

How the results depend on the processing

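Each of 16 alternative settings kept 3 of the 8 measured genes called higher and 5 called lower, and no fold change reversed. The genes were chosen with this contrast known, so the calls kept are a description. Leaving out 1 of 2 libraries cannot move a fold change by more than 1 SD between replicates, as that SD was computed here. Changes of the gene filter, the 1.2-fold requirement and the replicate number as a block leave the fitted fold change as it was. Stability therefore cannot be read from the lack of reversals or from the count that follows. Of 128 values under the alternatives, 120 moved by less than 1 SD between replicates. The 8 that moved more were those of CNTN6, CNTNAP2 and NCAM2 with a pseudocount of 10, of CNTN3, CNTNAP1, NCAM1 and L1CAM with the median of chromosomal neighbours subtracted, and of NCAM1 with equal library totals (0.66). When a change above 1.2-fold was required, 3380 genes were higher and 3414 lower over the whole table, and 16 higher and 9 lower in the wider list, by the construction of that test. With a dispersion fixed at 0.01, an assumed spread between cultures, 4063 genes were higher and 3880 lower over the table, and 17 and 10 in the wider list, where PTPRG, APP, NOTCH1, ANK2, SPTBN1, FYN, ADAM17 and NLGN2 lost their calls. On recovered reads edgeR's quasi-likelihood test called 6085 genes higher and 6282 lower. The fit with the replicate number as a block gave 5926 higher and 6218 lower genes and 21 and 14 in the wider list, and same-numbered libraries of the 2 groups did not deviate together (correlation -0.03). Leaving out one library leaves 1 in its group, which was assumed to vary like the other group. Depth limits CNTN6 and CNTN2 in parental cells and CNTNAP2 in resistant cells.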
